A study of Homo sapiens with 9 samples.

Results

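HMGA2, its antisense neighbour RPSAP52, HMGA1, the IGF2BP family and LIN28B were followed by RNA sequencing in the human glioblastoma line LN229 before and after formate. Of 7 listed genes, 6 had an entry in the count table of 23727 genes. IGF2BP1 is not analysed here. The genes were taken by symbol, but the group was selected on measured values: it was chosen by the fall of RPSAP52 at 24 h, which was among the largest of all genes. Values of 24 h are therefore given as a description, without a test, for each of the 6 genes. The comparison of 8 h with 0 h was not used in the choice and was tested.

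Per the labels' protocols, the medium held 10% serum, 17 mM glucose and 2 mM glutamine. The 3 groups held 3 libraries each: cells without formate at 0 h, cells given 500 µM sodium formate for 8 h, and cells given the same dose for 24 h. No untreated cells were sampled at 8 h or 24 h, so formate and time in culture cannot be told apart. All the libraries come from 1 cell line, and no label says whether replicates were separate cultures, so p-values measure only the spread between these libraries. Total counts ran from 22222298 to 25848242 per library. VIM and NES, glioma cell markers, lay at or above 887 CPM (counts scaled to library size) in every library, while GFAP stayed at or below 0.425 CPM. Markers of other cell types were mostly low. PTPRC and CD14 of immune cells reached 3 and 11 counts, EPCAM of epithelium 1 count and PECAM1 of endothelium 3 counts in any library. Of neuron markers, SYP reached 27 counts and TUBB3 ran from 3.46 to 5.23 CPM. Several markers moved with time. From 0 h to 24 h, mean S100B went from 130 to 340 CPM and OLIG2 from 8.31 to 11.9. VIM went from 4903 to 3554 CPM, CD44 from 999 to 769 and SOX2 from 80.0 to 69.5, while NES had 948 and 963. VWF of endothelium reached 1.58 CPM at most. Their part in the results was not tested. The source label spells the line LN299, and the growth protocol LN229. Replicate 1 stood apart from replicates 2 and 3 at 0 h and 8 h in several of the genes below, so values without it are also given.

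HMGA1 and HMGA2 are small chromatin proteins that bind the minor groove of AT-rich DNA through AT-hooks and change how other factors reach it. Both are abundant in embryos, silent or low in most adult tissues and often high again in tumours. IGF2BP1, IGF2BP2 and IGF2BP3 are RNA-binding proteins that stabilise and localise target mRNAs, among them the mRNA of IGF2, and read the m6A mark. LIN28B blocks the maturation of let-7 microRNAs, and let-7 in turn represses HMGA2, LIN28B and the IGF2BP mRNAs. RPSAP52 is a transcribed pseudogene of the ribosomal protein gene RPSA, known to promote HMGA2 expression and to bind IGF2BP2.

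What the coding genes of the family share outside the rule is the complement of the let-7 seed, the bases 2 to 8 that pair with a target. The mature sequences, from RefSeq on GRCh38.p14, are shown because all let-7 members and miR-98 carry the same seed, here in capitals. The 4 below stand for the 9 that were read.
let-7a-5p: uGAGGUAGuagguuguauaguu
let-7b-5p: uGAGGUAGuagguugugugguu
let-7g-5p: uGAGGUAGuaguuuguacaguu
miR-98-5p: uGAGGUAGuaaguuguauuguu

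The 7 bases CTACCTC, on the transcript's own strand only, were searched in the 3′ UTR of the principal transcript of each coding gene of GENCODE release 29. They occurred in 8.57% of 19145 genes, and 3 or more times in 0.162%. The 3′ UTR of HMGA2, of 3003 bases, held 4 matches, and 3 genes in the annotation held more. That of LIN28B (4549 bases) also held 4, and HMGA1, IGF2BP2 and IGF2BP3 held 1 each. The windows of 22 bases below show the matches of HMGA2 and 1 match of each other measured coding gene on GRCh38, with the match in capitals. A match is a description of sequence and not a site in use, and let-7 itself was not measured.
HMGA2 match 1, chr12:65963299-65963320, plus strand: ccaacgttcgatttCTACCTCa
HMGA2 match 2, chr12:65964534-65964555, plus strand: cccactactcaataCTACCTCt
HMGA2 match 3, chr12:65964946-65964967, plus strand: tgacttgcaaagacCTACCTCc
HMGA2 match 4, chr12:65965799-65965820, plus strand: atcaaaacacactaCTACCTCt
LIN28B match 1, chr6:105078813-105078834, plus strand: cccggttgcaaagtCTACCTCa
IGF2BP2 match, chr3:185644220-185644241, minus strand: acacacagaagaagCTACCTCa
IGF2BP3 match, chr7:23311795-23311816, minus strand: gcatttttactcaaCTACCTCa
HMGA1 match, chr6:34245830-34245851, plus strand: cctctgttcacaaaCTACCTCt

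HMGA2 (ENSG00000149948) lies on chromosome 12 from 65824131 to 65966295 on the plus strand, and RPSAP52 (ENSG00000241749) from 65758020 to 65826997 on the minus strand. The genes overlap head to head over 2867 bases. RPSAP52 has an exon from 1844 to 2866 bases downstream of the annotated start of HMGA2, between its first and next exon block. The other exon of RPSAP52 lies upstream of HMGA2, from -66111 to -65100 bases. The exons of the genes share 0 bases, so spliced reads of either could be told apart without strand, but unspliced HMGA2 reads over the RPSAP52 exon could not. The strand setting of the counting is not given in the sources used here, and the share of such reads was not tested. Of the 50-base stretches in RPSAP52 transcripts, 1.81% also occurred in a transcript of another gene, most often other RPSA pseudogenes. For HMGA2 that share was 0.469%, for HMGA1 7.59%, for IGF2BP2 6.45%, for IGF2BP3 5.12% and for LIN28B 1.01%.

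**Figure D1:**
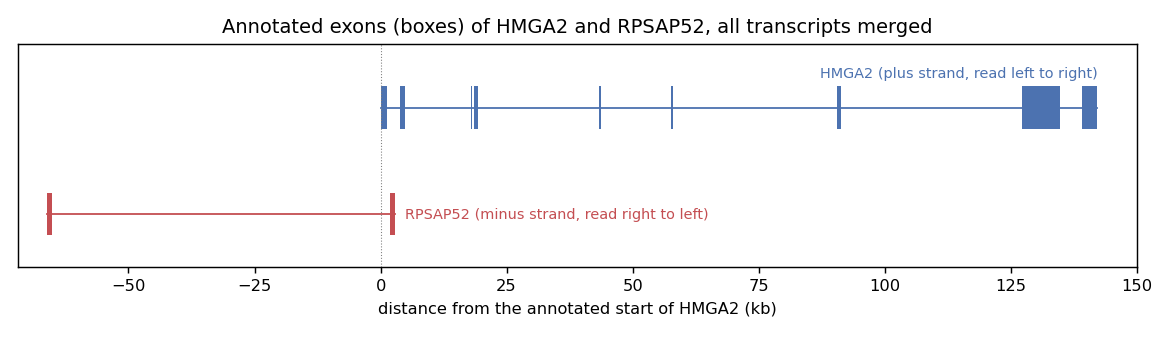
Annotated exons of HMGA2 and RPSAP52 by distance in kb from the start of HMGA2, with all transcripts of each gene merged. The RPSAP52 exon on the right sits between the first and the next exon block of HMGA2, and its transcript crosses the HMGA2 start on the opposite strand.

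RPSAP52 was at 23.8, 7.08 and 7.83 CPM (counts per 1e+06 counts of the TMM-scaled library) in replicates 1, 2 and 3 at 0 h. At 8 h it was at 20.2, 8.44 and 8.81 CPM, and at 24 h at 3.0, 1.90 and 0.788 CPM. All 3 libraries of 24 h lay under all 6 others, and replicate 1 was the highest in each group. These values rest on 177 to 505 counts per library at 0 h and on 19 to 71 at 24 h. The fitted log2 fold change of 24 h against 0 h was -2.76 with a standard error (SE) of 0.58, a 6.77-fold lower level, and 3 of 15273 tested genes fell further. Without replicate 1 in every group it was -2.47 (SE 0.28). As RPSAP52 was chosen for this fall, no test of it is given.

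HMGA2 was at 65.3, 45.6 and 64.1 CPM in replicates 1, 2 and 3 at 0 h. It was at 74.5, 47.9 and 62.6 CPM at 8 h and at 30.5, 28.4 and 23.5 CPM at 24 h. The lowest of the first 6 libraries stood at 45.6 CPM and the highest at 24 h at 30.5 CPM, so 24 h lay apart from the rest. The log2 fold change of 24 h against 0 h was -1.09 (SE 0.18), a 2.12-fold lower level, and without replicate 1 in every group it was -1.08 (SE 0.17). Within replicate numbers 1, 2 and 3 the log2 ratio of HMGA2 at 24 h to 0 h was -1.10, -0.68 and -1.45, and that of RPSAP52 was -2.99, -1.90 and -3.31. Replicate 2 had the smallest fall of both genes. The libraries do not clearly show a pairing of 0 h with 24 h by replicate number, so these ratios are a description. In bulk RNA, fewer cells with a transcript and less of it per cell cannot be told apart.

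**Figure D2:**
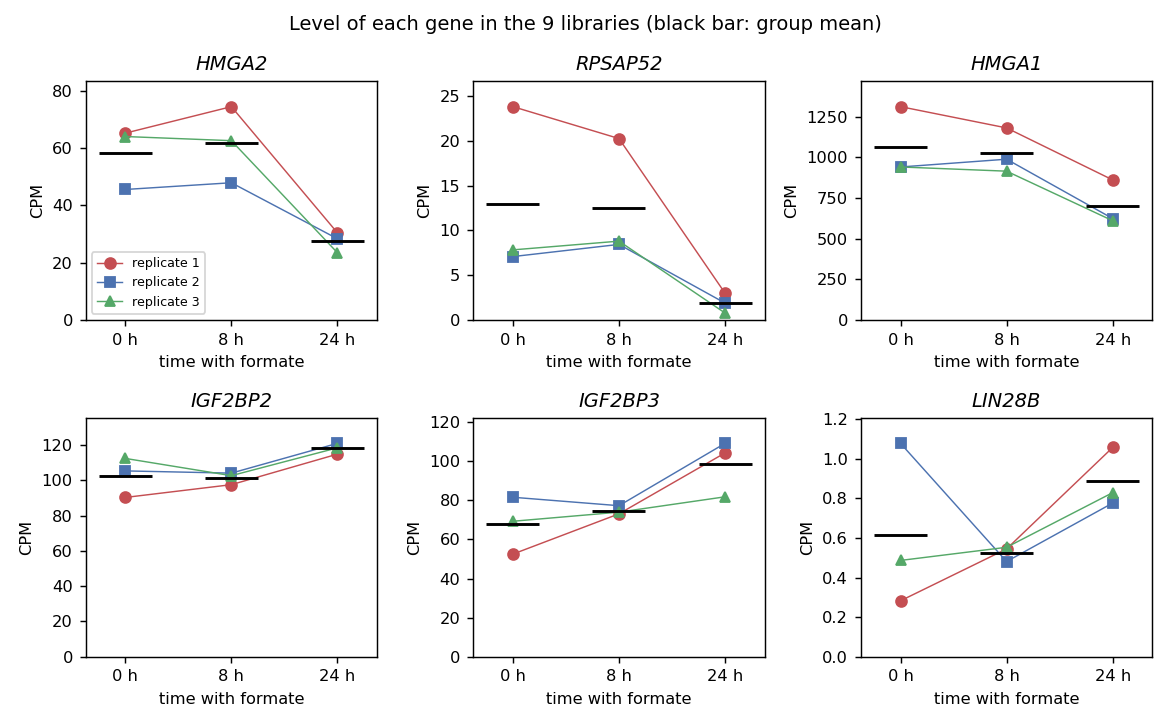
CPM of each of the 6 genes by time with formate (0, 8 and 24 h), with 1 point per library, lines joining libraries of the same replicate number and black bars for group means. RPSAP52, HMGA2 and HMGA1 are lowest at 24 h, whereas IGF2BP2 and IGF2BP3 are highest there.

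Both genes of the locus were lower at 24 h, and RPSAP52 by more. The counts of RPSAP52 per 100 counts of HMGA2 were 36.5, 15.5 and 12.2 in replicates 1, 2 and 3 at 0 h. They were 27.2, 17.6 and 14.1 at 8 h, and 9.86, 6.69 and 3.35 at 24 h. The group means were 21.4 ± 13.2 at 0 h, 19.6 ± 6.78 at 8 h and 6.63 ± 3.26 at 24 h (SD, n = 3). The 24 h ratios lay below the other 6, and within each group replicate 1 had the highest ratio and replicate 3 the lowest. This ratio does not depend on library scaling, but it uses the fall that chose RPSAP52 and is given without a test.

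**Figure D3:**
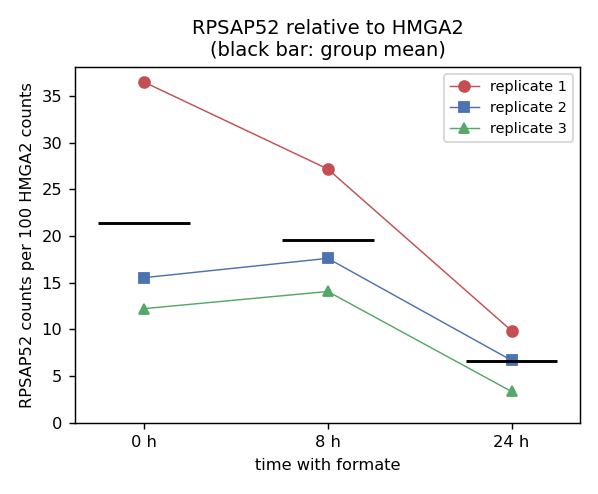
Counts of RPSAP52 per 100 counts of HMGA2 in each library by time with formate, with black bars for group means. The ratio lies between 12.2 and 36.5 at 0 h and between 3.35 and 9.86 at 24 h.

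The other 8 genes listed beside HMGA2 on chromosome 12 and found in the table were read to see whether the surroundings of the locus differed as well. At 24 h against 0 h, 0 of the 7 tested passed the quasi-likelihood test of edgeR (Benjamini-Hochberg adjusted) at the 0.05 threshold. Of all tested genes 4.25% passed, so a count of 0 in a list of this length is near the background and says nothing particular about it. Their log2 fold changes ran from -0.27 to 0.24 with a median of 0.13, beside 0.01 over all tested genes. LLPH, a nucleolar protein gene downstream, had the smallest p, with 39.3 ± 5.76 CPM at 0 h and 32.7 ± 2.12 at 24 h (adjusted p 0.179). Upstream, MSRB3, a methionine sulfoxide reductase, had 82.2 ± 11.3 and 89.8 ± 7.66 CPM, and LEMD3, an inner nuclear membrane protein gene, 55.1 ± 8.40 and 60.6 ± 1.48. Downstream past LLPH, TMBIM4 had 10.3 ± 0.946 and 10.5 ± 1.73 CPM, and HELB, a DNA helicase, 7.51 ± 1.38 and 8.91 ± 1.80. GRIP1 had 5.15 ± 0.889 and 5.02 ± 0.322 CPM, and TBC1D30 1.42 ± 0.271 and 1.57 ± 0.351 (SD, n = 3 throughout). IRAK3 had at most 0.0908 CPM in any library and was not tested. WIF1 and HMGA2-AS1 are not analysed here. None of the 7 passed with the replicate block either, where 24.1% of all genes did.

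RPSA, the ribosomal protein gene from which RPSAP52 derives, had 584 ± 191 CPM at 0 h, 495 ± 48.5 at 8 h and 454 ± 50.2 at 24 h (SD, n = 3). Its log2 fold change at 24 h against 0 h was -0.36 (SE 0.19), with an adjusted p of 0.250 by edgeR. The other named RPSA pseudogenes in the table, RPSAP9, RPSAP12, RPSAP15 and RPSAP19, had group means of at most 0.472 CPM and were not tested.

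HMGA1 (ENSG00000137309, chromosome 6, 34236873 to 34246231, plus strand) was the most abundant gene of the family. It stood at 1311, 941 and 941 CPM in replicates 1, 2 and 3 at 0 h. It stood at 1180, 988 and 915 CPM at 8 h and at 861, 624 and 610 CPM at 24 h. The 24 h libraries all lay under the other 6. Within replicate numbers 1, 2 and 3 the log2 ratio of 24 h to 0 h was -0.61, -0.59 and -0.62. That of 24 h to 8 h was -0.46, -0.66 and -0.58. The libraries do not clearly show a pairing of 24 h by replicate number, so these ratios are a description. The fitted log2 fold change of 24 h against 0 h was -0.61 (SE 0.18), and -0.61 (SE 0.08) without replicate 1 in every group. HMGA1 was 1.52-fold lower at 24 h and HMGA2 2.12-fold, so the counts of HMGA2 per 100 counts of HMGA1 went from 5.55 ± 1.10 at 0 h to 3.98 ± 0.519 at 24 h (SD, n = 3). The lowest ratio at 0 h was 4.85 and the highest at 24 h 4.55, so the groups did not overlap.

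IGF2BP3 (ENSG00000136231, chromosome 7, 23310209 to 23470467, minus strand) went the other way. Its levels were 52.5, 81.5 and 69.2 CPM in replicates 1, 2 and 3 at 0 h, and 73.1, 77.2 and 73.9 CPM at 8 h. At 24 h they were 104, 109 and 81.7 CPM. The highest library of 0 h, at 81.5 CPM, almost reached the lowest of 24 h, at 81.7 CPM, so the groups were separated by less than the spread within them. The log2 fold change of 24 h against 0 h was 0.54 (SE 0.15), and 0.34 (SE 0.13) without replicate 1 in every group. MALSU1 on the opposite strand overlaps 17.9% of the exon bases of IGF2BP3, and without a stated strand setting some of its counts could come from there.

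IGF2BP2 (ENSG00000073792, chromosome 3, 185643739 to 185825056, minus strand), a gene HMGA2 is known to activate, had 90.2, 105 and 112 CPM at 0 h. It had 97.5, 104 and 103 CPM at 8 h and 115, 121 and 118 CPM at 24 h in replicates 1, 2 and 3. The 24 h libraries lay just above the rest, with a log2 fold change of 0.20 (SE 0.10) against 0 h and of 0.14 (SE 0.07) without replicate 1 in every group. In the same 3 libraries the HMGA2 transcript was lower. Whether HMGA2 acts on IGF2BP2 in these cells was not tested. Per 100 counts of IGF2BP2, IGF2BP3 had 65.7 ± 10.3 counts at 0 h, 73.7 ± 1.51 at 8 h and 83.3 ± 12.4 at 24 h (SD, n = 3), and the 0 h and 24 h ratios overlapped.

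LIN28B (ENSG00000187772, chromosome 6, 104936616 to 105083332, plus strand) was near the limit of detection. It had 6, 28 and 11 counts in replicates 1, 2 and 3 at 0 h, 12, 11 and 13 at 8 h, and 25, 18 and 20 at 24 h. In CPM these were 0.283, 1.08 and 0.487 at 0 h, 0.545, 0.481 and 0.553 at 8 h, and 1.06, 0.777 and 0.829 at 24 h. For scale, 3 counts in the smallest library are 0.135 CPM. The range of 0 h enclosed that of 24 h, and the log2 fold change of 0.49 (SE 0.40) became 0.01 (SE 0.40) without replicate 1 in every group. No change of LIN28B at 24 h could be told from the spread at this depth.

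To compare levels between genes, CPM were divided by the exon length in kb, with the exons of all annotated transcripts merged, which understates genes with many unused exons such as HMGA2. On this scale HMGA1 led at 0 h with 457 ± 91.9 CPM per kb, followed by IGF2BP2 with 21.7 ± 2.38. IGF2BP3 (7.96 ± 1.71), RPSAP52 (6.34 ± 4.64) and HMGA2 (3.79 ± 0.716) came next, and neighbours among these overlapped between libraries. LIN28B was last with 0.103 ± 0.0688 (SD, n = 3). At 24 h HMGA1 (300.1 ± 60.6), IGF2BP2 (24.9 ± 0.647) and IGF2BP3 (11.6 ± 1.71) kept their places, and HMGA2 (1.78 ± 0.232) stood above RPSAP52 (0.932 ± 0.544). The lowest HMGA2 library at 24 h, at 1.53 CPM per kb, was above the highest RPSAP52 library, at 1.48.

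The first 8 h of formate were tested, since this comparison played no part in the choice of genes. At 8 h against 0 h, the quasi-likelihood test of edgeR (Benjamini-Hochberg adjusted) called 0 of the 6 genes and 0 of all 15273 genes (0%). Before adjustment, p lay under 0.05 in 79 genes (0.517%) and in 0 of the 6, and DESeq2 also called 0 genes. The log2 fold changes were 0.08 (SE 0.18) for HMGA2, -0.04 (SE 0.50) for RPSAP52 and -0.05 (SE 0.18) for HMGA1. They were -0.02 (SE 0.10) for IGF2BP2, 0.14 (SE 0.15) for IGF2BP3 and -0.26 (SE 0.43) for LIN28B. The libraries of 8 h and 0 h overlapped for each of the 6, as for most genes, since 3.31% of all tested genes did not overlap. With the replicate block the SE of RPSAP52 was 0.18 and its log2 fold change 0.04, and no gene passed. A change of RPSAP52 at 8 h as large as that at 24 h lies far outside these standard errors, whereas small changes were not detectable.

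The comparison of 24 h with 8 h shares its 24 h libraries with the comparison above, so its values are likewise a description. The log2 fold changes of 24 h against 8 h were -2.72 (SE 0.58) for RPSAP52, -1.17 (SE 0.18) for HMGA2 and -0.56 (SE 0.18) for HMGA1. They were 0.22 (SE 0.10) for IGF2BP2, 0.40 (SE 0.15) for IGF2BP3 and 0.75 (SE 0.41) for LIN28B. All 3 of RPSAP52, HMGA2 and HMGA1 lay lower at 24 h with no overlap between libraries, as did 16.2% of all tested genes. IGF2BP2, IGF2BP3 and LIN28B lay higher with no overlap, as did 18.2%.

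**Figure D4:**
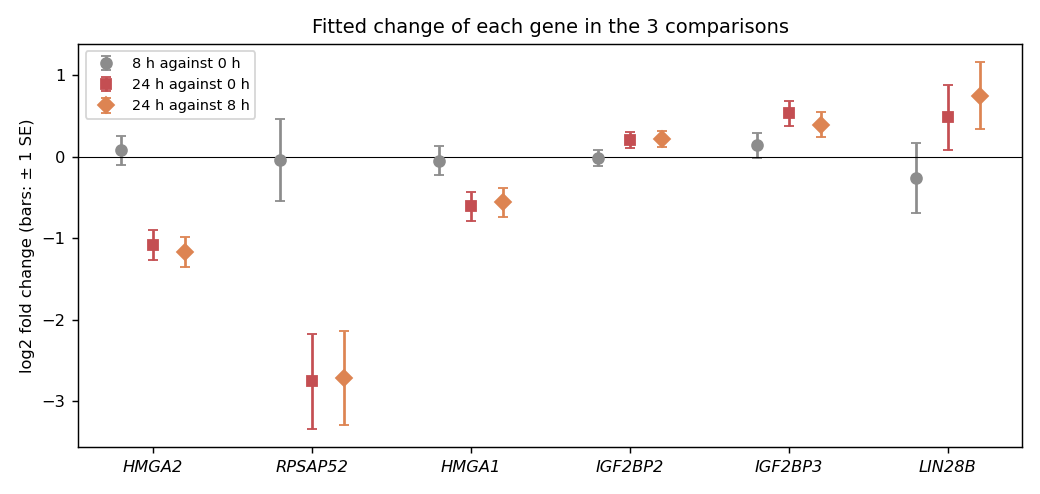
Fitted log2 fold change of each of the 6 genes in the 3 comparisons, with bars of 1 SE. The points of 8 h against 0 h lie within 1 SE of 0, and those involving 24 h run from -2.76 for RPSAP52 to 0.75 for LIN28B.

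Libraries of 24 h and 0 h did not overlap for HMGA2, RPSAP52 and HMGA1 on the lower side, as for 14.4% of 15273 tested genes, and for IGF2BP2 and IGF2BP3 on the higher side, as for 15.9%. Since the values of 24 h led to this choice of genes, nothing is read from these counts.

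The genes whose levels ran most like each of the 6 were sought among 10902 tested genes with a mean of at least 5 CPM, by Pearson's r of log2 CPM over the 9 libraries. The libraries share groups and replicate numbers, so r is a description only. With the group means removed, r for the 18 genes named here still ran from 0.859 to 0.998, so it also rests on differences between libraries of the same group. For RPSAP52 they were CAPN2, a calpain protease (r = 0.996), KPNA2, a nuclear import receptor (0.994), and LYPD1 (0.994). Mean levels at 0 h and 24 h were 672 ± 97.5 and 424 ± 70.1 CPM for CAPN2, 924 ± 196 and 551 ± 107 for KPNA2, and 418 ± 124 and 193 ± 58.6 for LYPD1 (SD, n = 3). For HMGA2 they were OSBPL3 (0.989), EXOC7 (0.987) and GPR39 (0.987), of which GPR39, a zinc-sensing receptor, had 7.27 ± 1.83 CPM at 0 h and 3.11 ± 0.723 CPM at 24 h.

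HMGA1 ran closest to PSMD9 (r = 0.997), GNB1 (0.996) and CDR2 (0.996), with the same number of libraries. IGF2BP2 ran closest to TLCD4, TTN-AS1 and TTC21B (0.980, 0.980 and 0.979), and IGF2BP3 to SIPA1L1, VRK2 and NUDT21 (0.984, 0.983 and 0.977). For LIN28B the closest were PRTG, ABTB2 and ZBTB34 (0.930, 0.911 and 0.909). When genes were ranked by these deviations from the group means instead, 1 of the 18 choices stayed among the closest 3, PSMD9 for HMGA1.

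Other genes that let-7 is known to repress did not share one direction. Of 30 listed, 27 were tested, and at 24 h against 0 h 3 rose and 1 fell by edgeR (adjusted p under 0.05), beside 2.47% of all tested genes that rose and 1.77% that fell. The median log2 fold change was -0.06, beside 0.01 over all tested genes. As the list was chosen with earlier results of these data known, these counts are a description. MYCN, a proto-oncogene of neural tumours, rose from 2.55 ± 1.32 to 9.55 ± 2.86 CPM (log2 fold change 1.89, SE 0.45, edgeR adjusted p 0.0408). E2F2, a cell cycle transcription factor, rose from 24.5 ± 2.62 to 38.9 ± 5.19 CPM (log2 fold change 0.66, edgeR adjusted p 0.0272), and ACVR1C, an activin receptor, from 0.549 ± 0.190 to 1.55 ± 0.118 CPM (1.47, edgeR adjusted p 0.0293).

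CCND1, the G1 cyclin D1, fell from 943 ± 137 to 563 ± 129 CPM (SD, n = 3; log2 fold change -0.74, edgeR adjusted p 0.0442), and LTO1 on the opposite strand overlaps 10.3% of its exon bases. In none of these 4 genes did the libraries of 24 h and 0 h overlap. Of all tested genes, 15.9% lay higher and 14.4% lower without overlap. The 4 genes were called from the same libraries, so this adds no support. With the replicate block 3 rose and 4 fell, where 24.1% of all genes passed. None of the 27 passed at 8 h, and at 24 h against 8 h 2 rose and 1 fell, where 4.56% of all genes passed. No gene of this list was called without replicate 2 or without replicate 3 of 24 h, where no tested gene was called at all. Without untreated replicate 1, 1 gene of this list was called, and nothing particular to the list is read from that.

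Of 15 tested genes that process let-7 and other microRNAs, 0 passed at 24 h against 0 h by edgeR, a count near the 4.25% of all genes that did, and the log2 fold changes ran from -0.30 to 0.32 with a median of 0.01. TARBP2, the partner of Dicer, had the smallest p, with 45.9 ± 7.67 CPM at 0 h and 37.3 ± 1.44 at 24 h (SD, n = 3; log2 fold change -0.30, edgeR adjusted p 0.148, and 0.0387 with the replicate block). DICER1 itself had 41.4 ± 12.6 and 51.1 ± 2.54 CPM.

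Of the IGF ligands, receptors and binding proteins, 12 of 15 were tested, and INSR alone passed at 24 h against 0 h, where 4.25% of all genes did. INSR, the insulin receptor, rose from 8.20 ± 0.975 to 13.1 ± 0.799 CPM (SD, n = 3; log2 fold change 0.68, SE 0.13, edgeR adjusted p 0.0267). No library of 24 h overlapped those of 0 h, as for 15.9% of all tested genes on the higher side, which adds no support beyond the call. IGF1R, which binds IGF1 and IGF2, had 86.9 ± 16.7 and 107 ± 4.67 CPM (log2 fold change 0.30, edgeR adjusted p 0.185). The list's median log2 fold change was 0.22, beside 0.01 over all tested genes. With the replicate block 4 passed (24.1% of all genes did), all higher, with H19, IGFBP3 and IGFBP5 in addition. IGFBP5, a secreted IGF-binding protein, had 25.3 ± 15.9 CPM at 0 h and 90.8 ± 42.6 at 24 h (log2 fold change 1.84, edgeR adjusted p 0.0699, and 0.000201 with the replicate block). The block rests on a pairing of 0 h with 24 h that the libraries do not clearly show. IGF1R and IGFBP5 were named after their values were seen, so their p-values are a description. INSR did not pass without untreated replicate 3, nor without replicate 2 or replicate 3 of 24 h, where no tested gene passed at all. The ligand genes IGF1 and IGF2 are not analysed here.

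The other high-mobility group chromatin genes were read beside HMGA1 and HMGA2. Of the 11, 2 passed at 24 h against 0 h, both lower, beside 4.25% of all tested genes that passed and 1.77% that fell. The list was chosen with earlier results of these data known, so its counts are a description. Of the 11 log2 fold changes 9 were negative, where 50.9% of all tested genes were positive. The median of the 11 was -0.15, beside 0.01 over all tested genes. At 8 h against 0 h, where no gene was called, all 11 were negative (median -0.06), and 43.3% of all tested genes were positive. HMGB3, which bends DNA, fell from 155 ± 21.2 to 102 ± 13.7 CPM (SD, n = 3; log2 fold change -0.61, SE 0.12, edgeR adjusted p 0.0282). HMGN2, a nucleosome-binding protein, fell from 458 ± 52.2 to 327 ± 34.5 CPM (log2 fold change -0.49, SE 0.12, edgeR adjusted p 0.0442). With the replicate block 6 of the 11 passed, 4 lower and 2 higher, where 24.1% of all genes passed. Leaving out any single untreated library left 1 of the 11, and nothing particular to the list is read from that. Leaving out replicate 2 or 3 of 24 h left 0 of the 11, and 0 of all tested genes.

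Genes that act with the IGF2BP proteins were read in the same way. Of 17 writers, erasers and other readers of m6A, 0 passed at 24 h against 0 h, with log2 fold changes from -0.27 to 0.24. With 4.25% of all genes called, a count of 0 in lists of this length is near the background and says nothing particular about them. METTL14, a subunit of the m6A writer, had the smallest p, with 26.4 ± 0.952 and 30.3 ± 1.06 CPM (SD, n = 3; edgeR adjusted p 0.223). Of 13 known RNA-binding partners in IGF2BP granules, 0 passed, and FXR1 had the smallest p, with 198 ± 9.39 and 172 ± 5.15 CPM (edgeR adjusted p 0.163). The log2 fold changes of these partners ran from -0.24 to 0.89. The highest was that of MATR3, with 17 to 74 counts per library at 0 h and 47 to 117 at 24 h. Another annotated gene of the same symbol overlaps 42.5% of its exon bases on the same strand. How far the counts of this entry stand for MATR3 as a whole was not tested. With the replicate block 1 gene passed in each of these lists, where 24.1% of all genes did. Among the granule partners it was MATR3.

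**Figure D5:**
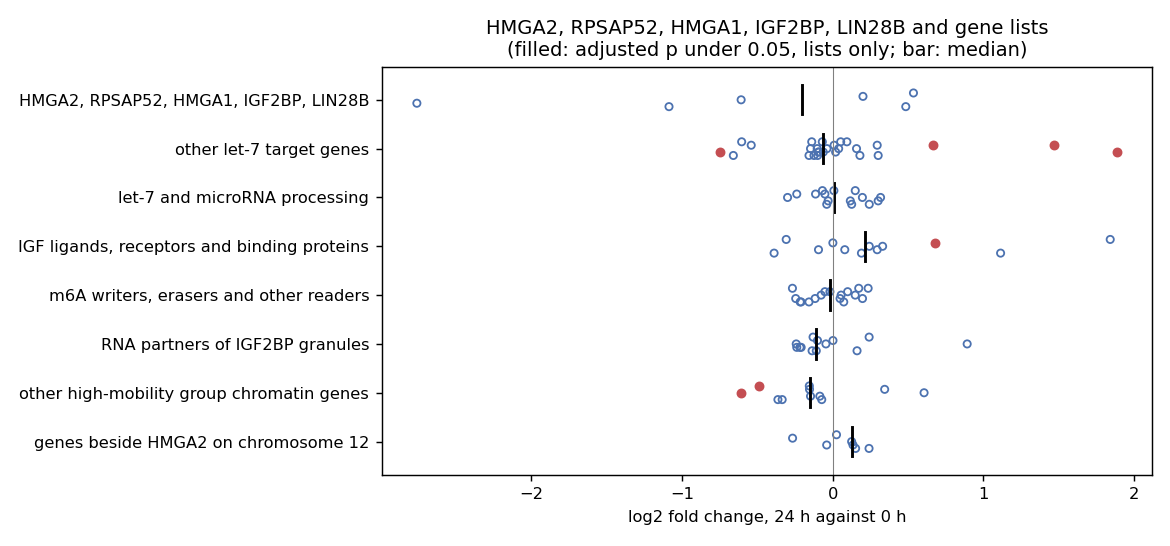
Log2 fold change of 24 h against 0 h for the tested genes of the family and of 7 gene lists, with 1 point per gene, a black bar at each median and, for the lists only, filled points where the adjusted p was under 0.05. The medians of the 7 lists lie between -0.15 and 0.22, and the points of the let-7 targets run from -0.74 to 1.89.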

How the data were processed

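The authors deposited raw counts per Ensembl gene for 9 libraries. The submitters' processing notes name bcl2fastq 2.20.0.422, STAR 2.7.4a and GRCh38, and the counting program, annotation and strand setting are not given in the sources used here. Per the labels' protocols, libraries were stranded, from mRNA of RNA with integrity above 9. Genes passing filterByExpr (15273) were scaled by TMM and fitted in edgeR 4.0.16 under R 4.3.3, with a coefficient for each of the 3 groups and no block. The quasi-likelihood test was two-sided, with Benjamini-Hochberg adjustment over all tested genes and a threshold of 0.05. On simulated data for 24 h against 0 h, 44.8% of genes changed 1.5-fold and 95.5% of those changed 2-fold were recovered. There were 12 false calls among 15114 genes, so changes near 1.5-fold are often missed. The simulation gave all genes the same spread and no difference between replicate numbers, unlike these libraries. Recovery in the libraries can therefore be lower, and more so for genes with a wide spread. DESeq2 1.42.0 was an alternative.

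Gene symbols were matched by Ensembl identifier (23619 genes), and coordinates from GENCODE release 29, which held 98.0% of all identifiers. The members and the 8 gene lists were chosen with earlier results of these data known, so counts of called genes in a list are a description. The text names every member, genes beside HMGA2, RPSA, up to 4 called genes of each other list with the smallest p (or the 1 with the smallest p), and the 3 genes most like each member. DICER1, IGF1R, IGFBP5 and MATR3 were named after their values were seen. Log2 CPM used a prior count of 2.

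Whether replicate numbers pair the libraries was checked by correlating deviations from group means across genes. For equal numbers r was 0.414 to 0.476 between 0 h and 8 h, 0.164 to 0.367 between 0 h and 24 h, and 0.0367 to 0.423 between 8 h and 24 h. For unequal numbers the highest r was 0.0108 between 0 h and 8 h, 0.270 between 0 h and 24 h, and 0.134 between 8 h and 24 h. The 0.270 was above r of the equal numbers 2 (0.164) and 3 (0.251). Pairing was thus clear between 0 h and 8 h only. The replicate block was fitted over all 3 groups, so block values that involve 24 h rest on a pairing the libraries do not clearly show. They stand beside results whose calls they change.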

Additional observations from a re-analysis of the deposited data

How the results depend on the processing

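The count of genes at 24 h against 0 h was 649, and 3687 with the replicate block, 1594 with DESeq2, 124 with only the groups compared and 2616 without replicate 1 in every group, an alternative chosen after seeing the data. Leaving out 1 library gave 0 to 899. At 24 h against 8 h the count was 696, and 3130 with the replicate block, 1447 with DESeq2, 1787 with only the groups compared, 3072 without replicate 1 in every group and 0 to 2545 without 1 library. The count was 0 without replicate 2 or 3 of 24 h in both comparisons, and without replicate 1 of 8 h in the second. How many members pass at 24 h is not given, since they were chosen by values of 24 h. At 8 h every alternative gave 0 genes and 0 members. There the sign of small member changes turned: RPSAP52 was 0.038 with the block and 0.21 without replicate 1 in every group, and HMGA1 0.017 without it. Leaving out 1 library gave ranges of -0.068 to 0.23 for HMGA2, -0.56 to 0.74 for RPSAP52, -0.15 to 0.12 for HMGA1, -0.11 to 0.064 for IGF2BP2, -0.016 to 0.30 for IGF2BP3 and -0.59 to 0.44 for LIN28B. No member reversed in the comparisons with 24 h under any alternative run. The cause of these shifts was not tested.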

Other observations

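Beyond the lists, tested coding genes other than the members were grouped by how many times their 3′ UTR holds the let-7 seed complement. At 24 h against 0 h the median log2 fold change was -0.01 for 11336 genes without a match, 0.02 for 1102 genes with 1 match, 0.06 for 110 genes with 2 and 0.06 for 25 genes with 3 or more. At 8 h against 0 h, where no gene was called, the medians in the same order were -0.02, 0.01, 0.02 and -0.01. The rise from no match to 2 matches was thus not particular to 24 h. The median 3′ UTR length rose with the number of matches, from 1020 bases without a match to 5954 bases with 3 or more, and its part in these values was not tested.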
